A study of Mus musculus with 6 samples.

Results

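The transcripts described here encode the enzymes that make and break down polyamines and the proteins that regulate the first of those enzymes. They were taken by gene symbol from the deposited table, and all 10 members (Odc1, Amd1, Srm, Sms, Sat1, Smox, Paox, Oaz1, Oaz2 and Azin1) were present among its 23306 genes with an identifier. PolyA RNA had been sequenced from mouse T-ALL (acute leukaemia of the T-cell lineage), a cancer of immature T cells, in 3 libraries with wild-type Phf6 and 3 with Phf6 knocked out. The tumours were isogenic, of the C57BL/6 strain and collected from bone marrow. Phf6 had been deleted by a Cre recombinase that tamoxifen induces, with corn oil as the vehicle, so the drug and the deletion cannot be told apart. The sources used here do not give the animals' age, the promoter of the recombinase or whether the libraries of a group came from separate animals, and p-values therefore measure the spread between these libraries, which may be technical.

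Polyamines (putrescine, spermidine and spermine) are small positively charged molecules that bind nucleic acids and are needed for cell growth. Ornithine decarboxylase (Odc1) makes putrescine, S-adenosylmethionine decarboxylase (Amd1) supplies the aminopropyl donor, spermidine synthase (Srm) turns putrescine into spermidine and spermine synthase (Sms) turns spermidine into spermine. In the other direction, spermine oxidase (Smox) acts on spermine directly, whereas the acetyltransferase Sat1 acetylates spermidine and spermine for export or for oxidation by Paox. Antizymes (Oaz1, Oaz2) bind ornithine decarboxylase and send it to the proteasome, and the antizyme inhibitor Azin1, an inactive relative of the enzyme, binds the antizymes in its place. Odc1 and Srm are known targets of the transcription factor MYC.

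Several of these messages carry sequences through which polyamines act on translation, which a read count does not measure, and they are shown because they mark how the members are related. In both antizymes the ribosome has to shift by a single base at a stop codon when polyamines are plentiful. The stretch around the site was read from GENCODE M21 transcripts of the 2 genes, with the last sense codon of the first frame and the stop codon in capitals:
Oaz1: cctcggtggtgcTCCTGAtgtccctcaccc
Oaz2: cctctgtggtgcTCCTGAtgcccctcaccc
The annotated coding models of both genes leave out 1 base here, so that the same stretch reads through, with the joined bases in capitals:
Oaz1 coding model: cctcggtggtgcTCCGAtgtccctcaccc
Oaz2 coding model: cctctgtggtgcTCCGAtgcccctcaccc
The Amd1 message holds a short reading frame ahead of the coding sequence, which in transcript Amd1-201 starts at base 12 and is shown with its start and stop codons in capitals:
Amd1: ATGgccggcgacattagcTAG
The same 21 bases start at base 13 of transcript Amd2-201. Amd2 is a near-identical copy of Amd1: 3190 of 3204 aligned bases were the same (99.6%), and how reads that match both were handled was not stated, so the values of Amd1 and Amd2 are uncertain.

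Each library held 46067511 to 54953145 reads assigned to genes. The targeted gene, Phf6, had 5508, 4240 and 5075 normalised read counts in wild type and 1781, 2337 and 1755 in knockout, lower in every knockout library but not at 0 (4941 ± 645 against 1958 ± 329, SD, n = 3 each; limma, log2 fold change -1.34, adjusted p = 0.00184). All 12 markers of the T lineage had reads in every library, with summed levels of 5506 to 5826 CPM (reads scaled to a common library total) in wild type and 4734 to 5315 in knockout, and 3 of the 12 fell. Of 14 markers of neutrophils and their precursors, 9 rose and none fell, with sums of 111 to 419 CPM in wild type and 988 to 1242 in knockout. The sums were 39.6 to 67.0 and 106 to 144 CPM for 12 monocyte and macrophage markers (6 rose, none fell), 340 to 431 and 270 to 356 for 10 B-cell markers (7 rose and 1 fell, although the sums ran lower in knockout), 5.004 to 10.05 and 6.34 to 15.0 for 8 erythroid markers (6 tested, none called), and 490 to 581 and 666 to 858 for the 6 stromal and endothelial markers of 8 listed that had a row (4 tested, none rose and 1 fell, although the sums ran higher in knockout). No marker with a row was at 0 in every library, and Ms4a1 and Col3a1 were at 0 in some.

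Spermidine synthase was the single member that passed the test. All 10 members passed the filter on low values, and of these 1 fell, none rose and 9 did not pass the test (limma, Benjamini-Hochberg adjusted p under 0.05 over 17993 genes; 1 at an unadjusted p under 0.05; 1 called by edgeR and 1 by DESeq2). Over all tested genes 8.75% were called, 5.32% higher and 3.43% lower (8.16% by edgeR and 12.4% by DESeq2), so the share among the members lies close to the background. An unadjusted limma p under 0.05 was found for 4538 of the 17993 genes. The members' median log2 fold change was -0.049, beside -0.013 for all tested genes.

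The 4 enzymes of synthesis all had log2 fold changes below 0, the 3 of catabolism all had values above 0, and the antizyme group was mixed; with library totals as the scaling, Odc1 and Amd1 turned to 0.061 and 0.0087, and the signs of Odc1, Amd1, Smox and Oaz2 turned when single libraries were left out. The medians were -0.090 for synthesis, 0.14 for catabolism and -0.12 for the antizymes and Azin1. Among all tested genes 51.7% had a log2 fold change below 0. None of the 3 catabolic genes and none of the 3 antizyme regulators passed (limma; none at an unadjusted p under 0.05; none in edgeR or DESeq2). The 95% confidence intervals of the other 9 members, given with their values, show how large a change each could still hold.

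**Figure D1:**
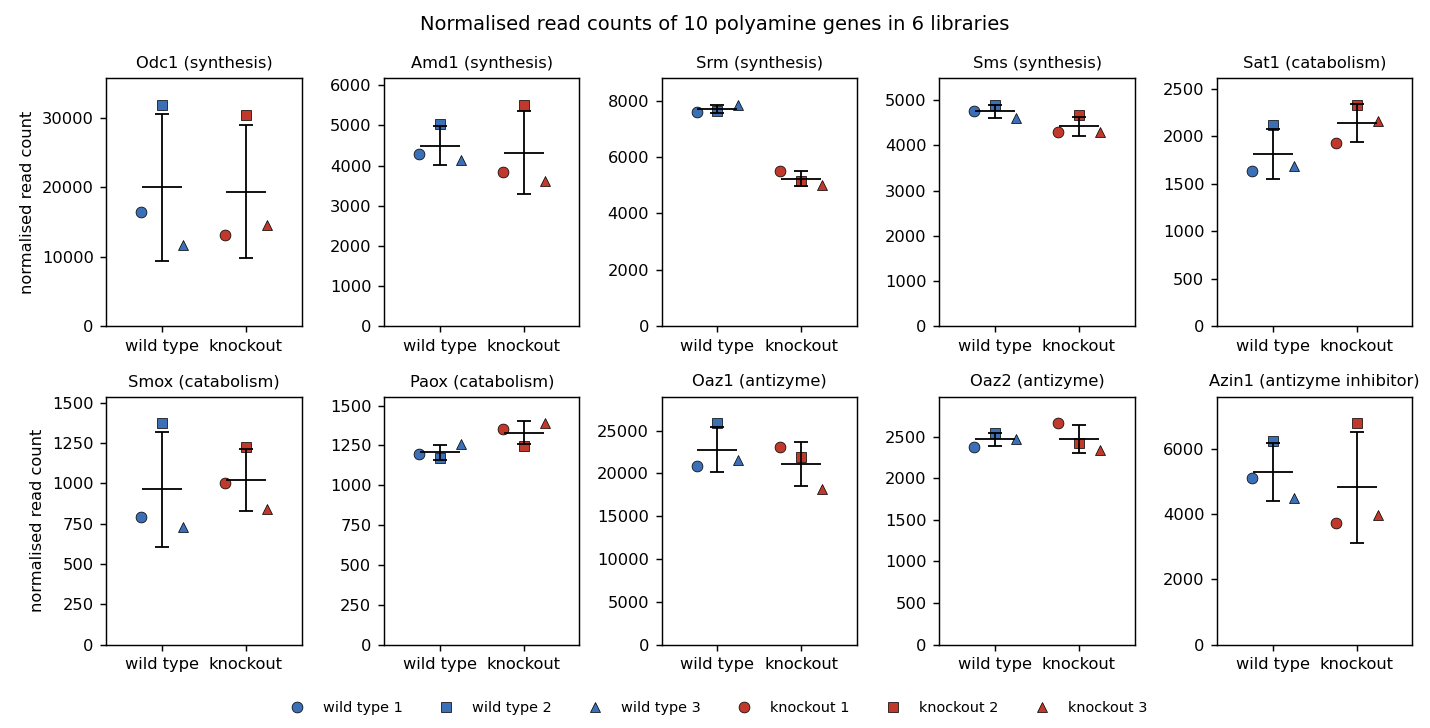
Normalised read counts (vertical axes, from 0) of the 10 members in 3 wild-type (blue) and 3 knockout (red) libraries, with the marker shape giving the library number and black bars the mean ± SD (n = 3). The groups are apart for Srm, at 7618 to 7857 against 5001 to 5519, while Odc1 runs from 11675 to 31876 within wild type.

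Synthesis began with Odc1, whose level varied more between libraries than between genotypes. Odc1 (ENSMUSG00000011179; GRCm38 chromosome 12, 17544794 to 17551505, plus strand) gave 16370, 31876 and 11675 normalised read counts in wild type (libraries 1 to 3, an order kept throughout) and 13087, 30400 and 14597 in knockout. Library 2 was the highest of each genotype, and the groups overlapped almost fully. The means were 19974 ± 10572 and 19361 ± 9589 (SD, n = 3 each), and the log2 fold change of -0.023 had a 95% confidence interval of -1.44 to 1.40 (limma, adjusted p = 0.985), which leaves room for a change of more than 2-fold in either direction.

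Amd1 (ENSMUSG00000075232; chromosome 10, 40287458 to 40302186, minus strand) was likewise highest in library 2, over a narrower range. Its counts were 4286, 5042 and 4136 in wild type and 3839, 5510 and 3615 in knockout. Knockout libraries 1 and 3 were the lowest and knockout library 2 the highest of all, so the groups overlapped. The log2 fold change was -0.075 (95% confidence interval -0.44 to 0.29; limma, adjusted p = 0.813). Amd2 had 69.1, 109 and 87.7 in wild type and 80.3, 116 and 55.2 in knockout, a log2 fold change of -0.11 that did not pass the test (limma, adjusted p = 0.846).

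Srm (ENSMUSG00000006442; chromosome 4, 148591503 to 148594993, plus strand) was lower in every knockout library than in every wild-type library. The wild-type counts were 7618, 7657 and 7857 and the knockout counts 5519, 5161 and 5001. The libraries lay close together within each group, with no overlap between them. The knockout mean was 0.68 of the wild-type mean, and on the log2 scale Srm changed by -0.56 ± 0.08 (SE; 95% confidence interval -0.73 to -0.39; limma, adjusted p = 0.00424). Srm kept its call in all 17 alternatives, which gave log2 fold changes from -0.60 to -0.48 and adjusted p from 5.47e-08 to 0.0374. In bulk samples, fewer cells with the transcript and less of it per cell cannot be told apart. The neutrophil, monocyte, stromal and T-lineage marker sums given above also did not overlap between the genotypes. The B-cell sums overlapped while 8 of the 10 B-cell markers were called, and no stromal marker was called higher. The part of these cells in the fall of Srm was not tested.

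Sms (ENSMUSG00000071708; chromosome X, 157443855 to 157492287, minus strand), which performs the next aminopropyl transfer, moved much less than Srm. Its counts were 4763, 4894 and 4600 in wild type and 4294, 4669 and 4305 in knockout. Knockout library 2 lay above wild-type library 3, so the groups overlapped. The log2 fold change was -0.10 (95% confidence interval -0.28 to 0.068; limma, adjusted p = 0.441), an interval that does not reach the estimate for Srm. Within each library the log2 ratio of Srm to Sms, in which gene length cancels between libraries, was 0.68, 0.65 and 0.77 in wild type and 0.36, 0.14 and 0.22 in knockout. These ratios did not overlap between the genotypes and are given as a description.

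Among the genes of catabolism, Sat1 came nearest to a change. Sat1 (ENSMUSG00000025283; chromosome X, 155213132 to 155216449, minus strand), the acetyltransferase that starts polyamine breakdown, had counts of 1635, 2119 and 1683 in wild type and 1928, 2329 and 2158 in knockout. Each knockout library exceeded wild-type libraries 1 and 3, and wild-type library 2 lay above knockout library 1. The log2 fold change was 0.24 (95% confidence interval -0.023 to 0.51) and did not pass the test (limma, adjusted p = 0.238). Wild-type library 2 also had the highest neutrophil marker sum of its genotype, 419 CPM against 111 and 182. In knockout the sums were 1217, 1242 and 988 CPM in libraries 1 to 3, and library 1 had the lowest Sat1 count. The part of those cells in the Sat1 values was not tested.

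Smox (ENSMUSG00000027333; chromosome 2, 131491496 to 131525922, plus strand) spread within each genotype as Odc1 did. Its counts were 790, 1371 and 727 in wild type and 1000.4, 1222 and 841 in knockout. Library 2 was the highest of both genotypes, and the log2 fold change was 0.13 (95% confidence interval -0.47 to 0.72; limma, adjusted p = 0.801). Paox (ENSMUSG00000025464; chromosome 7, 140115799 to 140137224, plus strand), the oxidase of acetylated polyamines, was steadier, with 1194, 1168 and 1259 in wild type and 1353, 1248 and 1388 in knockout. Knockout library 2 fell just below wild-type library 3, and the log2 fold change was 0.14 (95% confidence interval -0.068 to 0.35; limma, adjusted p = 0.391). Exons of Paox overlap those of Echs1 on the opposite strand, which had a mean of 3048 counts, and whether strand was used in counting was not stated, so the Paox values are uncertain.

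The antizymes showed no call. Oaz1 (ENSMUSG00000035242; chromosome 10, 80826656 to 80829290, plus strand) had 20905, 25841 and 21616 counts in wild type and 23124, 21865 and 18175 in knockout. The ranges overlapped, with the highest value in wild-type library 2 and the lowest in knockout library 3. The log2 fold change was -0.12 (95% confidence interval -0.37 to 0.14; limma, adjusted p = 0.580).

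Oaz2 (ENSMUSG00000040652; chromosome 9, 65668001 to 65690300, plus strand) had 2381, 2543 and 2476 counts in wild type and 2659, 2419 and 2341 in knockout. The knockout libraries spanned all 3 wild-type values, and the log2 fold change of 0.0019 had the 95% confidence interval -0.19 to 0.19 (limma, adjusted p = 0.991). Azin1 (ENSMUSG00000037458; chromosome 15, 38487427 to 38519266, minus strand), which acts against the antizymes, had 5133, 6266 and 4513 counts in wild type and 3722, 6799 and 3997 in knockout. Knockout library 2 was the highest of all 6 libraries and the other knockout libraries were the lowest. The log2 fold change was -0.17 (95% confidence interval -0.78 to 0.43; limma, adjusted p = 0.724), and -0.45 without knockout library 2. An antisense gene with a mean of 9.49 counts, Gm49077, overlaps exons of Azin1.

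Of the 10 members, Srm alone had groups that did not overlap, 1 of 10 against 31.2% of all tested genes in either direction and 16.2% with the knockout lower. The spread between libraries of a genotype differed widely among the members. Odc1 had a within-group SD of 0.70 on the log2 scale, larger than that of 99.1% of the 7587 tested genes with a mean of at least 1000 counts. The values were 0.40 for Smox (97.4% of those genes below), 0.38 for Azin1 (97.1%) and 0.26 for Amd1 (92.3%). The Smox mean over all libraries lay just under 1000 counts (962 in wild type and 1021 in knockout). Smox was thus ranked against a set of genes that does not hold it. At the other end were Srm with 0.054 (7.88%), Sms with 0.058 (9.83%), Paox with 0.069 (15.6%) and Oaz2 with 0.075 (20.2%), and Sat1 and Oaz1 lay between at 0.17 each. A fall of the size seen for Srm lay within the 95% confidence intervals of Odc1 and Azin1 and outside those of the other 7 members.

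The libraries that stood high were the same for several members, an observation made after the values were seen. Odc1, Amd1, Sms, Sat1, Smox and Azin1 (6 of 10) were highest in library 2 of both genotypes, a pattern that 20.9% of all tested genes shared. The labels do not say that equal numbers mark a shared origin. Myc, the gene of the transcription factor for which Odc1 and Srm are known targets, went the other way, with counts of 12128, 7029 and 15791 in wild type and 13802, 6196 and 12003 in knockout, lowest in library 2 of both. Mxd1, which encodes a MAX partner that opposes MYC, was chosen after its values were seen and had 1205, 3057 and 944 counts in wild type and 1456, 4277 and 1546 in knockout, highest in library 2 of both. Other genes listed with Myc as its network went both ways. Mnt was also highest in library 2 of both genotypes (3825 and 3730 counts). Mxd4 was lowest there in both (7465 and 6822), and Mxd3 was lowest there in wild type (1164) but not in knockout. Library 2 also had the highest neutrophil sum (419 and 1242 CPM) and the lowest T-lineage sum (5506 and 4734 CPM) of each genotype. In knockout library 1 the neutrophil sum was nearly as high, at 1217 CPM, while Odc1 was the lowest of its genotype, at 13087 counts. The part of these cells was not tested. With both number-2 libraries left out, an alternative chosen after seeing the data, Srm remained the single member called (log2 fold change -0.56; limma, adjusted p = 0.00413), Odc1 was at -0.0003 and Azin1 at -0.32 (limma, adjusted p = 0.0598). Mxd1, at a log2 fold change of 0.49 with all libraries (limma, adjusted p = 0.722), passed the test without them (0.49; limma, adjusted p = 0.0355). Mxd1 was named because these libraries stood apart, and leaving them out lowers its spread by that choice. No conclusion on Mxd1 is drawn from this pass.

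**Figure D2:**
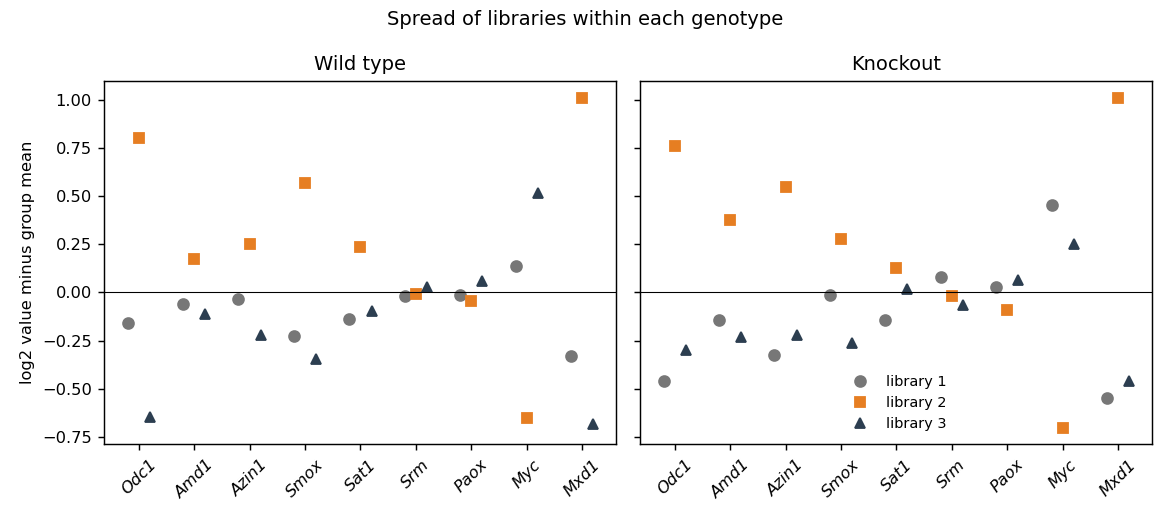
Log2 normalised read count minus the mean of the library's own genotype (vertical axis) for 7 members, Myc and Mxd1, with grey circles, orange squares and dark triangles for libraries 1, 2 and 3. In both genotypes library 2 is highest for Odc1, Amd1, Azin1, Smox, Sat1 and Mxd1 and lowest for Myc, and the 3 libraries lie close together for Srm (within-group SD 0.054).

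The starts of Odc1 and Amd1, whose values were highest in the same libraries, are shown as the stretch before the annotated gene, from RefSeq (GRCm38.p6), with each match to the GC box GGGCGG on either strand in capitals. The Odc1 stretch is chr12:17544623-17544793, plus strand, and the Amd1 stretch is chr10:40302189-40302438, minus strand:
Odc1: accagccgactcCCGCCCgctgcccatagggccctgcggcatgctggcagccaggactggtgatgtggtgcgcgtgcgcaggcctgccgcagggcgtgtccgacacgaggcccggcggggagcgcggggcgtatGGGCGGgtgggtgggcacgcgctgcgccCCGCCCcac
Amd1: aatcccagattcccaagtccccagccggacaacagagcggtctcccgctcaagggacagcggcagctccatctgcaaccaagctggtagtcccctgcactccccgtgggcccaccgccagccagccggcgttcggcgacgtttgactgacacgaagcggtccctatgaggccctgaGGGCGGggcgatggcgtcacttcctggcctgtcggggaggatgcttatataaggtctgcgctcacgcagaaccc
The Odc1 stretch holds 3 such matches and the Amd1 stretch 1. RefSeq starts were matched for 8 members (10 windows of the 250 bases before a start), and Srm and Azin1 had no entry. Of the 10 windows 8 held a GC box, against 32.7% of all 32851 windows, and none held TGACGTCA (1.55% of all windows). All windows were counted whether or not their gene had reads here, while every member had reads in all libraries, so the sets are unlike. Paox and Sms had more than 1 window each, and those of Paox overlap and share a GC box. The 10 windows are therefore not separate sequences. By gene, 7 of the 8 members had a GC box in a window, and no count by gene was made over all windows. Members with and without the library pattern of Odc1 and Amd1 held a GC box. Paox and Oaz2, which were not highest in library 2 of both genotypes, held a GC box. Sms, which was, had 4 matches in 1 window and 0 in the other. The letters CACGTG, the E-box that MYC and MAX bind, were found in 1 of the 10, at a start of Sms, against 6.02% of all windows. It is shown with the E-box of Aldh18a1, a gene of ornithine supply that fell (chrX:157492461-157492500 and chr19:40588500-40588539, both minus strand, E-box in capitals):
Sms: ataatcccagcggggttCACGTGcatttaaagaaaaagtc
Aldh18a1: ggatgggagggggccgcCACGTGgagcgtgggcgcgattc
The window of Ahcy, the other gene of the wider lists that fell, held 0 matches to CACGTG. A match is a description of the letters in these windows, and no match says only that they are not in them.

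Levels of different members were compared per length, as TPM (reads per base of annotated exon, scaled to a common total per library). Oaz1 was the most abundant, at 514 ± 39 TPM in wild type and 497 ± 45 in knockout (SD, n = 3 each). Odc1 followed at 335 ± 163 and 342 ± 163, and Srm at 279 ± 14 and 198 ± 7. Amd1 (73.1 ± 4.9 and 73.6 ± 16.1) stood below Srm and above Oaz2 in all 6 libraries.

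Oaz2 (47.7 and 49.98 TPM in the 2 genotypes), Azin1 (48.9 and 46.6), Sms (45.7 and 44.5) and Sat1 (37.7 and 46.6) lay close together. Oaz2 exceeded Azin1 in 3 of 6 libraries, Azin1 exceeded Sms in 3 and Sms exceeded Sat1 in 4, so the order of these neighbours did not hold across libraries. Paox (14.2 and 16.4) and Smox (14.2 and 15.8) were lowest and likewise changed places. Oaz1 was above Odc1 in 5 of 6 libraries and Odc1 above Srm in 5, with library 2 placing Odc1 at 517 TPM in wild type and 529 in knockout.

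**Figure D3:**
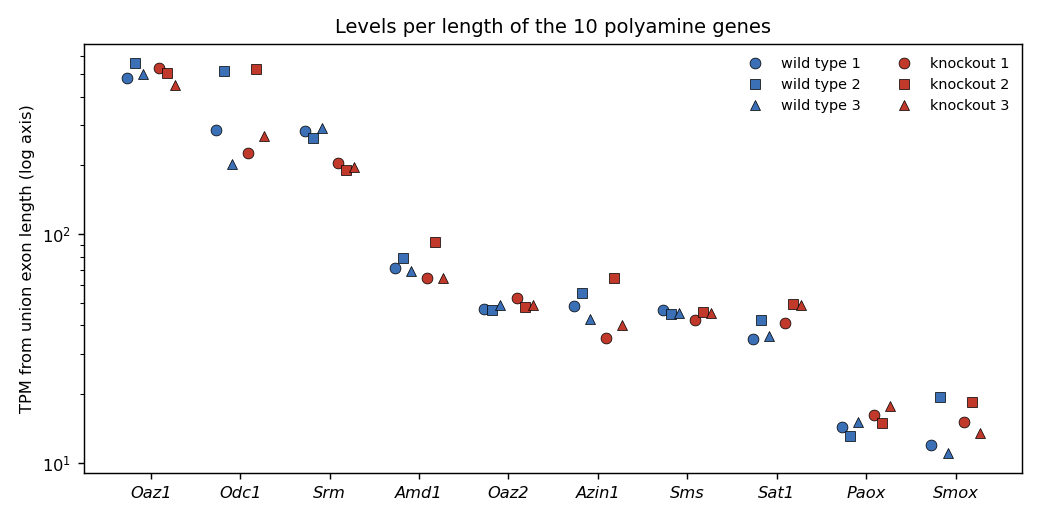
TPM (log axis) of the 10 members in each wild-type (blue) and knockout (red) library, with the marker shape giving the library number. Oaz1, Odc1 and Srm form the upper group, 5 members lie between about 35 and 92 TPM, Srm is lower in all knockout libraries, and Paox and Smox are lowest.

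Synthesis was set against its regulators and against catabolism by log2 ratios within each library, as a description. The ratio of Odc1 to Oaz1 was -0.35, 0.30 and -0.89 in wild type and -0.82, 0.48 and -0.32 in knockout, and that of Azin1 to Oaz1 was -2.03, -2.04 and -2.26 in wild type and -2.64, -1.69 and -2.19 in knockout. Both overlapped between the genotypes. The ratio of Odc1 to Sat1, the entry into synthesis against the entry into catabolism, was 3.32, 3.91 and 2.79 in wild type and 2.76, 3.71 and 2.76 in knockout. The difference of means, -0.27, was smaller than the SD within each genotype (0.56 and 0.55).

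**Figure D4:**
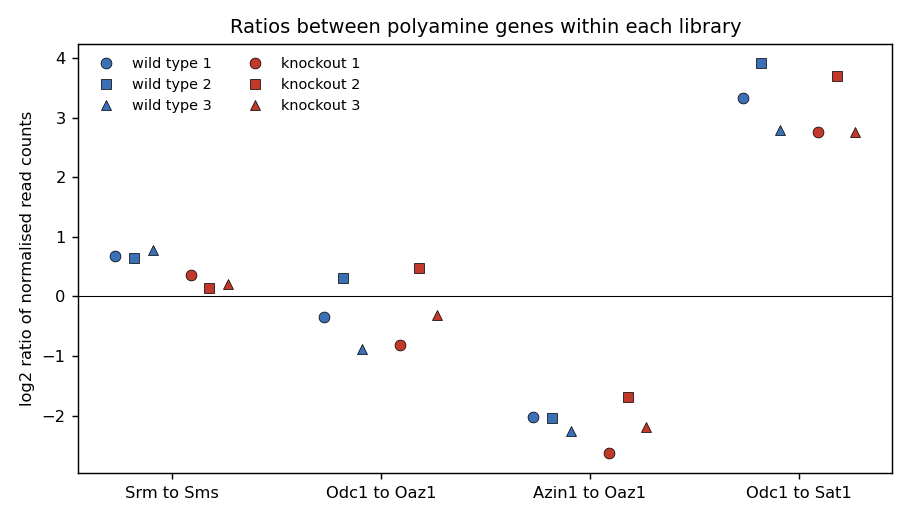
Log2 ratios of normalised read counts between pairs of members (vertical axis) in each wild-type (blue) and knockout (red) library, with the marker shape giving the library number. Ratios of Srm to Sms are 0.65 to 0.77 in wild type and 0.14 to 0.36 in knockout, and the other 3 ratios overlap between the genotypes.

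Around the members, 7 lists of related genes were read from the same fit. Of 48 listed genes 40 had a row and 39 were tested, and 1 rose, 2 fell and 36 did not pass (limma; 9 at an unadjusted p under 0.05), with a median log2 fold change of -0.098. For 14 of the 39 the groups did not overlap. Over all 17993 tested genes 8.75% were called and 31.2% had groups that did not overlap. An unadjusted limma p under 0.05 was found for 4538 of those 17993. The shares in the wider lists thus lie close to those of all tested genes. In the supply of ornithine and arginine, 1 of 5 tested genes fell. Aldh18a1, which makes the precursor of proline and ornithine from glutamate, had counts of 3979, 3432 and 3577 in wild type and 2412, 2490 and 2181 in knockout. All 3 knockout libraries lay below all wild-type libraries, and the log2 difference was -0.63 ± 0.09 (SE; limma, adjusted p = 0.00484). Arginase 1 (Arg1), which makes ornithine from arginine, was scarce, at 14.0 to 20.7 counts in wild type and 23.1 to 27.1 in knockout, and did not pass (log2 fold change 0.45; limma, adjusted p = 0.359). Arg2 was below the filter, at 5.005 to 10.4 counts in all libraries. Ornithine aminotransferase (Oat), at -0.20, and the arginine transporter gene Slc7a1, at -0.19, did not pass (limma, adjusted p = 0.260 and 0.171). Groups did not overlap for 4 of the 5 tested genes of this list, beside 31.2% of all tested genes. Those were Aldh18a1, Oat and Slc7a1, lower in knockout, and Arg1, higher. An unadjusted limma p under 0.05 was found for 2 of the 5.

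Of 8 genes of the methionine cycle and of methylthioadenosine salvage, which make and recycle the donor of aminopropyl groups, 1 fell. Ahcy, which hydrolyses S-adenosylhomocysteine, had counts of 9300, 9020 and 8641 in wild type and 7087, 7134 and 5909 in knockout. The groups did not overlap, and the log2 fold change was -0.43 ± 0.09 (SE; limma, adjusted p = 0.0222). The call was lost without wild-type library 1, wild-type library 3 or knockout library 3 (limma, adjusted p = 0.103, 0.0597 and 0.0815) and under a variance model without trend (0.0938). Mat2a, which makes S-adenosylmethionine, was at -0.17 and Mtap, which recycles the by-product of both aminopropyl transfers, at -0.046, and neither passed (limma, adjusted p = 0.593 and 0.769).

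Among the paralogs of the members, 1 of 3 tested genes rose. Azin2, a second antizyme inhibitor, had counts of 11.01, 17.8 and 3.62 in wild type and 41.7, 68.5 and 37.1 in knockout. Every knockout library exceeded every wild-type library, at a level far below that of Azin1 (0.15 and 0.73 TPM against 48.9 and 46.6). The log2 fold change was 2.13 ± 0.46 (SE; limma, adjusted p = 0.0230), on a scale of log2(value + 2) that understates the change of so scarce a gene. The call was lost when wild-type library 1 or any single knockout library was left out (limma, adjusted p = 0.0814 without wild-type library 1 and 0.0586, 0.0686 and 0.0946 without knockout libraries 1 to 3) and under a variance model without trend (0.0765). The neutrophil marker sums were also higher in every knockout library, and their part was not tested.

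None of 6 transport genes passed (limma; 1 at an unadjusted p under 0.05; none in edgeR or DESeq2). Atp13a3, a polyamine importer, had a log2 fold change of -0.098 and Slc3a2, a heavy chain shared by amino acid transporters, of -0.17 (limma, adjusted p = 0.593 and 0.671). Slc12a8, chosen after its values were seen, had 102, 106 and 108 counts in wild type and 81.4, 58.2 and 49.1 in knockout (-0.76; limma, adjusted p = 0.0704), and passed without knockout library 1 (-0.95; limma, adjusted p = 0.0447). Eif5a, whose protein carries hypusine, a residue built from spermidine, uses the product of Srm. Its counts were 62314, 69857 and 63366 in wild type and 54788, 55551 and 46553 in knockout. The groups did not overlap, but the log2 fold change of -0.32 did not pass (limma, adjusted p = 0.0667) and was called by DESeq2 (adjusted p = 0.0381). None of the 4 hypusine genes passed in limma (1 at an unadjusted p under 0.05; none in edgeR and 1 in DESeq2), and none of the 10 genes of the MYC network did (2 at an unadjusted p under 0.05; none in edgeR or DESeq2). Myc itself had a log2 fold change of -0.13 with a 95% confidence interval of -1.32 to 1.06 (limma, adjusted p = 0.893).

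**Figure D5:**
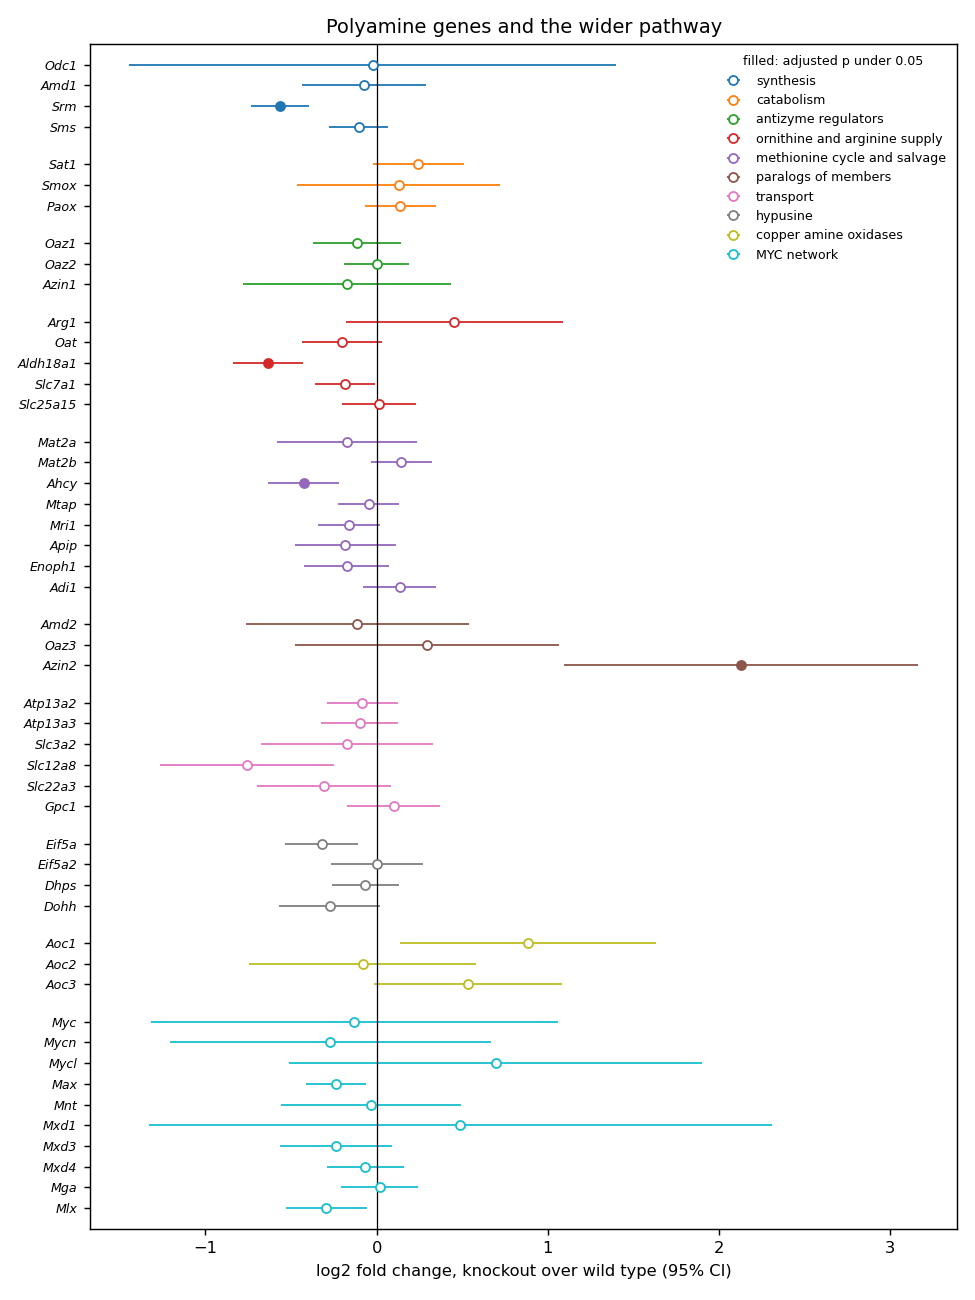
Difference between knockout and wild type as log2 fold change (horizontal axis), with bars for the 95% confidence interval, for the 10 members and the 39 tested genes of the wider lists, coloured by list, with filled points for adjusted p under 0.05. Srm, Aldh18a1 and Ahcy are the filled points below 0 and Azin2 is the filled point above 0, and the intervals of Odc1, Myc and Mxd1 are among the widest.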

How the data were processed

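The deposited table holds a signal for each gene and library: read counts that the authors scaled by a size factor. The evidence is in the numbers themselves: in every library 100% were whole multiples of a smallest step (tolerance 0.01), and division by the step was taken to give whole reads. In wild-type library 1 and knockout library 3 the step was close to 1 (1.001 and 1.003), so there the test separates recovered reads from rounded values less clearly. Per the submitters' processing notes, the tools were DESeq2, featureCounts, STAR 2.6.0a and bcl2fastq 1.8.4, and the build GRCm38. Columns were matched to samples by name. Of 23314 rows, 8 without an identifier, at most 0.00106% of a library's reads, were left out.

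Genes reaching 10 in 3 or more libraries were tested with limma 3.58.1 in R 4.3.3. The values entered as log2(value + 2), the scale of all fold changes, with a robust, trended variance prior, with Benjamini-Hochberg adjustment across every gene in the fit. edgeR 4.0.16 (quasi-likelihood) and DESeq2 1.42.0 on the recovered reads were alternatives, with other scalings, filters, pseudocounts, a variance model without trend, a replicate block and each library left out. The procedure was tested on simulated data. TPM used exon lengths from GENCODE M21, which held 23277 of 23306 identifiers. Members and lists were chosen with earlier results of these data known. Named were Phf6, all members, called genes of the wider lists and 11 fixed genes. Mxd1, Mxd3, Mxd4, Mnt, Slc12a8, Slc7a1, Aoc1, Aoc3, Echs1, Gm49077 and the marker genes at 0 were named after their values were seen. Figures used Python 3.11.15 and matplotlib 3.10.9.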

Additional observations from a re-analysis of the deposited data

How the results depend on the processing

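The lowest value of any member in any library was 727 normalised counts, and 3 libraries per genotype limit the comparison. Under the 17 alternatives (1 of them chosen after seeing the data), 159 values of members kept their direction and their side of the threshold and 11 changed sign, and none of those 11 was a call. With library totals as the scaling, the log2 fold change of Odc1 was 0.061, of Amd1 0.0087 and of Mtap 0.038. Leaving out single libraries gave ranges of -0.40 to 0.38 for Odc1, -0.26 to 0.041 for Amd1, -0.043 to 0.41 for Smox, -0.051 to 0.040 for Oaz2, -0.38 to 0.15 for Amd2, -0.34 to 0.033 for Slc3a2, -0.46 to 0.22 for Myc and -0.015 to 0.99 for Mxd1, all of which turned sign. Without a turn of sign, the ranges were -0.45 to -0.012 for Azin1 (lowest without knockout library 2, highest without knockout library 1), -0.19 to -0.013 for Oaz1 (without knockout libraries 1 and 3), -0.37 to -0.0082 for Mat2a (without wild-type libraries 2 and 3), -0.21 to -0.030 for Atp13a3 (without wild-type libraries 2 and 1), -0.28 to -0.093 for Oat (without knockout libraries 2 and 3) and -0.093 to -0.0092 for Mtap. The count of members called was 1 throughout. Over all genes, 1575 were called, 652 without trend and robust options and 191 to 1939 without single libraries (464 without wild-type library 1, 665 without wild-type library 3, 958, 873 and 191 without knockout libraries 1 to 3). Library totals called 1217 higher and 300 lower, against 957 and 618. Of the wider lists, 3 genes were called, 1 without trend and robust options and 1 to 3 without single libraries. With the replicate number as a block, 2568 genes were called, 6 of the wider lists and 1 member (Srm, adjusted p = 0.00103). Eif5a (adjusted p = 0.0388), Slc12a8 (0.0473) and Mxd1 (0.00871) passed with the block and not without it. The deviations of same-numbered libraries from their group means had correlations of 0.012, 0.50 and 0.14 for numbers 1 to 3. Knockout library 1 correlated best with wild-type library 3 (0.38) and knockout library 3 with wild-type library 1 (0.18). The labels name no shared origin, so the numbers were not taken as pairs. The causes were not tested.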

Other observations

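The copper amine oxidases, which degrade amines outside the pathway described above, gave no call among 3 tested genes (limma; 1 at an unadjusted p under 0.05; none in edgeR or DESeq2). Aoc1, the diamine oxidase, had counts of 13.01 to 14.5 in wild type and 17.7 to 39.5 in knockout. Its groups did not overlap, as was so for 31.2% of all tested genes in either direction. Aoc3 had 88.9 to 117 and 104 to 193, with overlap.

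Pseudogenes of the members also collected reads. Oaz1-ps had 846, 1171 and 969 counts in wild type and 983, 929 and 704 in knockout, the same order of libraries within each genotype as Oaz1. Sms-ps had a mean of 48.3, Oaz2-ps of 44.3, and Amd-ps1, Amd-ps3 and Amd-ps4 of 21.4, 18.3 and 18.3 counts over the 6 libraries.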
